A study of Mus musculus with 7 samples.

Results

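The 8 genes described here, Tcf7, Lef1, Gata3, Bcl11b, Runx1, Runx3, Tox and Tox2, encode transcription factors that act in early T-cell development. They were chosen by symbol from the 32286 features of the count matrices, and all 8 were found. Their level was read from unique molecular identifiers (UMIs, each standing for 1 captured mRNA molecule) in CPM, its UMIs divided by all UMIs of the library's thymocyte barcodes and scaled to 1e6, and as the share of barcodes with at least 1 UMI. Both were taken over thymocyte barcodes, that is, barcodes with at most 1 UMI of the B-cell genes Cd79a, Cd79b and Ms4a1 together, of which there were 71081 in 7 libraries.

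The study sorted mouse thymocytes around the point where αβ and γδ T cells part, and profiled them with the 10x Genomics 3' v3 single-cell assay. The 5 WT libraries came from pooled thymi of C57BL/6 mice of both sexes, 6 to 8 weeks old, after bead removal of CD4+ and CD8+ cells. They were DN3a (CD4- CD8- double-negative cells before TCR selection, with low CD71), DN3b γδ- and DN4 γδ- (pre-TCR-selected αβ precursors), DN3b γδ+ (γδ-selected precursors) and DN4 γδ+ (immature γδ T cells still carrying CD24). The 2 Lat-KO libraries, DN3 γδ- and DN3 γδint, came from pooled thymi of Lat-/- mice that also carried the TCRd-H2BEGFP reporter. These mice lack LAT, the membrane adaptor that carries the signal of the pre-TCR and of the γδ TCR into the cell, in every cell type, so thymocytes do not pass the DN3 stage normally. About 500 splenic B cells were spiked into each library. Each group has a single library, so no difference between groups could be tested against replicates, no p-value is given, and all intervals are 95% intervals of counting error only.

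TCF-1 (encoded by Tcf7) and LEF-1 are HMG-box proteins that bind the same DNA motif and pair with β-catenin or with Groucho/TLE corepressors. GATA-3 is a zinc-finger factor needed from the earliest T-cell precursors onward, and BCL11B, also a zinc-finger protein, is switched on as precursors commit to the T lineage and represses natural killer and progenitor programmes. RUNX1 and RUNX3 share a Runt DNA-binding domain and the partner CBFβ. RUNX1 is the main member in early thymocytes, and RUNX3 is best known in CD8 T cells and other cytotoxic lymphocytes. TOX and TOX2 are HMG-box proteins, and TOX is induced by TCR signals and needed for CD4 T-cell development.

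Runx1 was lowest and Runx3 highest in the 2 γδ+ libraries, and promoter stretches that both genes share are shown here beside those of Bcl11b and Tox2. Runx1 and Runx3 are each transcribed from a distal and a proximal promoter. Of 17 RefSeq promoter windows (GRCm38.p6, 250 bases before to 50 after a start site) of 7 of the 8 genes, the distal windows of Runx1 and Runx3 were the only windows that held AACCACA, the reverse complement of the RUNX motif TGTGGTT searched on both strands, and each held it in 2 copies that were 1 base apart. The motif was found in 5.269% of all 32851 promoter windows. The stretches around the pair are shown 5' to 3' on the gene's strand with the motif in capitals, together with the Bcl11b stretch that holds the TCF/LEF letters CTTTGAA, found in 5.135% of windows, and the Tox2 stretch that holds ATCAAAG, the reverse complement of CTTTGAT, found in 3.729% of windows.
Runx1, distal: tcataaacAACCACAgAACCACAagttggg
Runx3, distal: ggtccctcAACCACAgAACCACAaggccag
Bcl11b: gccaagcaCTTTGAAgaagtgtgagagata
Tox2, internal start: ggatttggATCAAAGaggttaaataacagg
The Runx1 stretch is at chr16:92826026-92826055 on the minus strand, its first motif base 27 bases after the RefSeq start and inside an exon of the GENCODE gene. The Runx3 stretch is at chr4:135120502-135120531 on the plus strand, its first motif base 135 bases before the start and outside any exon of Runx3. The Bcl11b stretch is at chr12:108003482-108003511 on the minus strand, with the motif 89 bases before the RefSeq start but inside a GENCODE exon of Bcl11b, and the Tox2 stretch is at chr2:163225305-163225334 on the plus strand, 140 bases before that start and outside any exon of Tox2. The proximal Runx1 and Runx3 windows held none of the 10 motifs searched, each read on both strands. Besides those above, these were TGTGGTC for RUNX, AGATAA or TGATAA for GATA factors, CAGGTG or CAGCTG for E-box factors, TGGGAA for RBPJ and GGAAGT for ETS factors, none overlapping another in these windows. A match is a description of letters, and which promoter a molecule came from cannot be read from 3' counts.

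All 8 genes are protein-coding in GENCODE vM21 (mm10 coordinates). Tcf7 lies at chr11:52252371-52283014 (minus strand), Lef1 at chr3:131110471-131224356 (plus), Gata3 at chr2:9857078-9890034 (minus), Bcl11b at chr12:107910403-108003602 (minus), Runx1 at chr16:92601466-92826149 (minus), Runx3 at chr4:135120652-135177990 (plus), Tox at chr4:6686353-6991557 (minus) and Tox2 at chr2:163203125-163324170 (plus). Bcl11b and Tox2 overlap no other annotated gene. The other 6 overlap 1 to 3 genes each, among them genes on the opposite strand such as A630014C17Rik (Tcf7), Lef1os1 (Lef1) and Gm16224 (Runx3). The sources used here do not state whether counting used the strand, so counts of these 6 could include molecules of such a neighbour.

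Thymocyte barcodes numbered 5274 to 18515 per library, with 37820685 to 338698944 UMIs in sum and medians of 5738 to 18506 UMIs per barcode. The 3 deepest libraries were DN3b γδ-, DN4 γδ- and DN3b γδ+. The rule left Cd79a at 0.267 to 1.53 CPM, against 2180 to 4054 CPM in the 99 to 256 B-like barcodes per library (at least 10 UMIs of the 3 B-cell genes and fewer than 10 UMIs of T-cell markers). Lat stood at 357 to 648 CPM in the WT libraries and at 4.83 CPM (γδ-) and 0.899 CPM (γδint) in the Lat-KO libraries, which matches the labels. The T-cell marker list had 9 or 10 of its 10 genes at 5 CPM or more in every library, and the library pairs shared 7 to 68 thymocyte barcode sequences. The Lat-KO DN3 γδint library stood apart in its ribosomal-protein share, 18.1% of UMIs against 27.6% to 33.7% in the others, and its B-like barcodes did as well (19.8% against 29.8% to 35.5%).

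**Figure D1:**
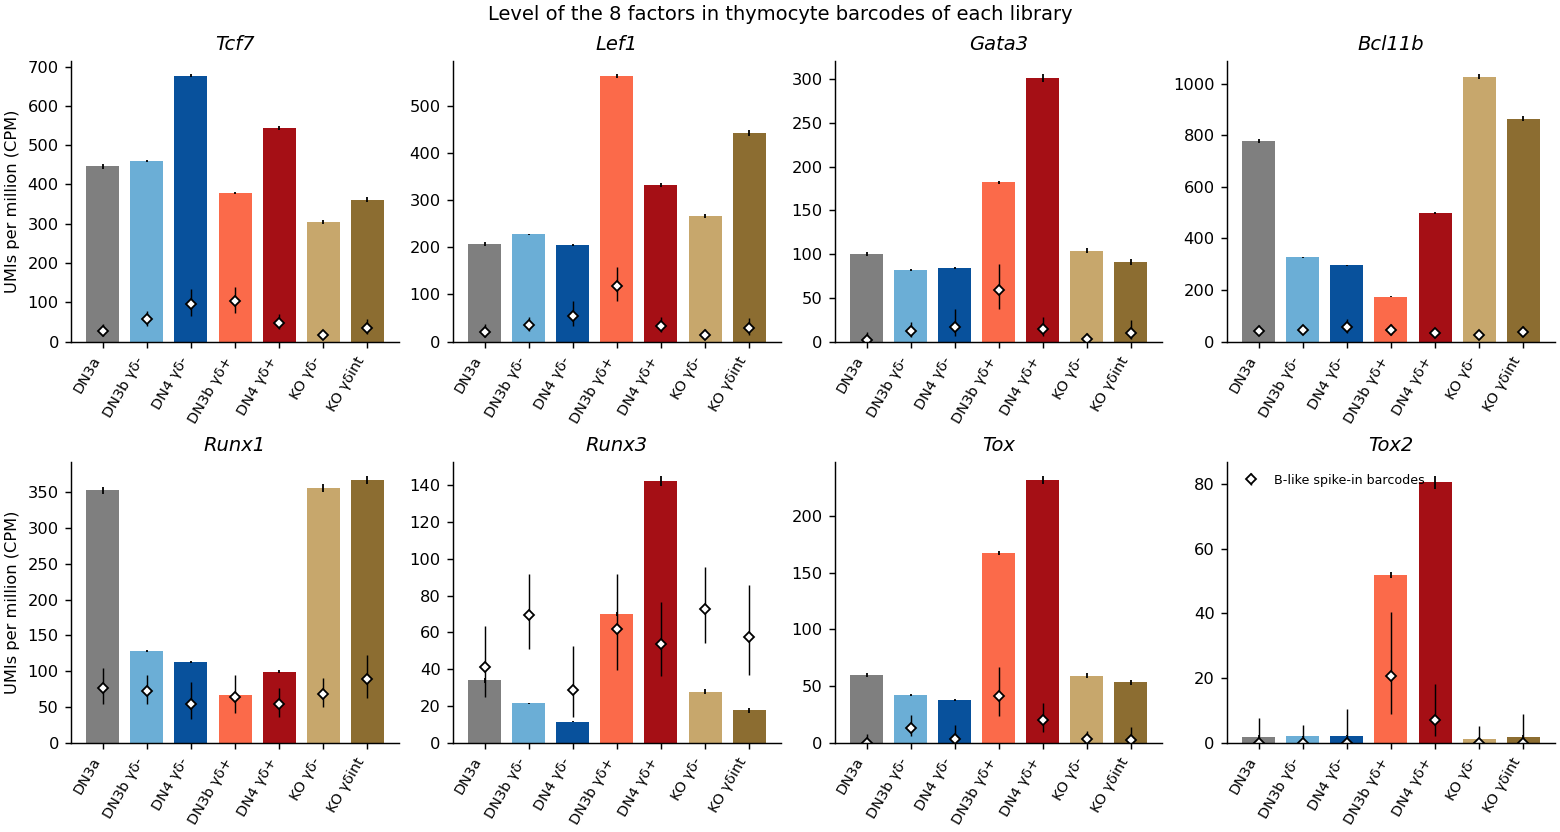
Level of each factor in CPM (y axis) in the 7 libraries (x axis, KO for Lat-KO DN3). Bars are thymocyte barcodes, white diamonds the B-like spike-in barcodes of the same library, and lines 95% Poisson intervals. Tox2 exceeded 50 CPM in both WT γδ+ libraries and stayed at or below 2.15 CPM in the other 5, while Bcl11b and Runx1 were lowest in DN3b γδ+ and near their maximum in DN3a and in both Lat-KO libraries.

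Tcf7 was present at a high level in all groups and varied least of the 8 genes. On the γδ path Tcf7 stood at 378 CPM (DN3b γδ+) and 544 CPM (DN4 γδ+), on the αβ path at 461 CPM (DN3b γδ-) and 677 CPM (DN4 γδ-), before selection at 446 CPM (DN3a), and without LAT at 305 CPM (γδ-) and 361 CPM (γδint). The highest library was thus DN4 γδ- and the lowest Lat-KO DN3 γδ-, 2.22-fold apart, and no pair of neighbours in this order had overlapping intervals. By library totals DN4 γδ+ lay above DN3b γδ-, and DN3a above DN3b γδ+. Both of these orders turned with TMM factors (526 against 564 and 425 against 452 scaled CPM). They also turned with median-of-ratios factors (388 against 390 and 304 against 314). The 2 Lat-KO libraries nearly coincided under the other scalings, with γδint over γδ- at 0.24 by library totals, -0.004 with TMM factors and 0.04 with median-of-ratios factors. Tcf7 was higher at DN4 than at DN3b on both paths, 1.47-fold in γδ- cells (log2 ratio 0.56, 95% interval 0.55 to 0.57) and 1.44-fold in γδ+ cells (0.52, 0.51 to 0.54). In both Lat-KO libraries it lay below every WT library, by 1.46-fold in DN3 γδ- against WT DN3a (-0.55, -0.58 to -0.52). Lat-KO DN3 γδint over DN3b γδ+ depended on the setting. It was -0.07 by library totals, -0.81 with TMM factors, -0.73 with median-of-ratios factors and -0.44 (-0.54 to -0.34) in G1 barcodes, and its direction turned in G2M barcodes (0.10, 0.01 to 0.19) and with the B-like level subtracted (0.25).

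Lef1 was highest in DN3b γδ+ cells, except among G1 barcodes, where Lat-KO DN3 γδint was. Unselected DN3a cells held 207 CPM of Lef1, the αβ precursors 227 CPM at DN3b and 204 CPM at DN4, the γδ+ cells 563 CPM at DN3b and 331 CPM at DN4, and the Lat-KO libraries 266 CPM (γδ-) and 442 CPM (γδint). DN3b γδ+ lay 2.71-fold above DN3a (1.44, 1.41 to 1.47) and 2.48-fold above DN3b γδ- (1.31, 1.30 to 1.32), and the intervals of DN3a and DN4 γδ- overlapped. The Lat-KO γδint library was 1.66-fold above Lat-KO DN3 γδ- (0.73, 0.70 to 0.77). It lay above DN4 γδ+ by library totals, but below it with TMM factors (315 against 320 scaled CPM), with median-of-ratios factors (232 against 236) and in S barcodes (328 against 389 CPM). In DN4 γδ+ cells Lef1 was 1.70-fold lower than in DN3b γδ+ (-0.77, -0.79 to -0.75), the only one of the 8 genes that was lower at this step.

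Gata3 was highest in the γδ+ libraries. On the γδ path Gata3 stood at 182 CPM (DN3b γδ+) and 301 CPM (DN4 γδ+), on the αβ path at 82.0 CPM (DN3b γδ-) and 84.2 CPM (DN4 γδ-), before selection at 100 CPM (DN3a), and without LAT at 104 CPM (γδ-) and 90.9 CPM (γδint). The 5 libraries without a surface γδ TCR at WT level spanned 82.0 to 104 CPM, and the DN3a and Lat-KO DN3 γδ- intervals overlapped. DN4 γδ+ exceeded DN4 γδ- 3.58-fold (1.84, 1.81 to 1.87) and DN3b γδ+ exceeded DN3b γδ- 2.22-fold (1.15, 1.13 to 1.17). DN4 γδ+ over DN3b γδ+ was 0.73 (0.70 to 0.75) over all barcodes. By phase it was 1.05 in G1, 0.05 (-0.10 to 0.20) in S and 0.51 in G2M barcodes. DN3b γδ- against DN3a gave -0.29 (-0.33 to -0.24), a direction that turned with the scaling (0.07 with TMM factors and 0.03 with median-of-ratios factors).

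Bcl11b was highest before selection and in the absence of LAT. Unselected DN3a cells held 778 CPM of Bcl11b, the αβ precursors 326 CPM at DN3b and 296 CPM at DN4, the γδ+ cells 174 CPM at DN3b and 498 CPM at DN4, and the Lat-KO libraries 1028 CPM (γδ-) and 865 CPM (γδint). By library totals all neighbours in the order of level had separate intervals, and the highest library was 5.92-fold above the lowest. Lat-KO DN3 γδint lay above DN3a by library totals, but below it with TMM factors (617 against 742 scaled CPM). It was also below DN3a with median-of-ratios factors (454 against 530). Against DN3a it was 2.38-fold lower in DN3b γδ- (-1.25, -1.27 to -1.24) and 4.48-fold lower in DN3b γδ+ (-2.16, -2.19 to -2.14). In DN4 γδ+ cells it was 2.87-fold above DN3b γδ+ (1.52, 1.5 to 1.54), with 1.08 in G1, 1.18 in S and 0.97 (0.90 to 1.05) in G2M barcodes, whereas DN4 γδ- and DN3b γδ- differed 1.10-fold (-0.14, -0.16 to -0.13).

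Runx1 was also highest before selection and in the absence of LAT, and was lowest in both γδ+ libraries. On the γδ path Runx1 stood at 66.9 CPM (DN3b γδ+) and 99.3 CPM (DN4 γδ+), on the αβ path at 129 CPM (DN3b γδ-) and 113 CPM (DN4 γδ-), before selection at 353 CPM (DN3a), and without LAT at 356 CPM (γδ-) and 367 CPM (γδint). The DN3a and Lat-KO DN3 γδ- intervals overlapped, and no selected WT library came near the level of these or of Lat-KO DN3 γδint. DN3b γδ- was 2.74-fold below DN3a (-1.46, -1.48 to -1.43) and DN3b γδ+ was 5.28-fold below it (-2.40, -2.43 to -2.37). B cells express Runx1 themselves, and the B-like barcodes held 53.5 to 88.7 CPM, so the DN3b γδ+ level lay within the interval of the B-like barcodes of the same library (64.2 CPM, 95% interval 41.6 to 94.8).

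Runx3 was highest in the γδ+ libraries. Unselected DN3a cells held 33.8 CPM of Runx3, the αβ precursors 21.3 CPM at DN3b and 11.4 CPM at DN4, the γδ+ cells 69.8 CPM at DN3b and 142 CPM at DN4, and the Lat-KO libraries 27.8 CPM (γδ-) and 17.6 CPM (γδint). The 7 intervals were separate. DN4 γδ- was lowest by library totals and in S and G2M barcodes, and Lat-KO DN3 γδint was lowest with TMM factors (12.5 against 14.0 scaled CPM), with median-of-ratios factors (9.23 against 10.2) and in G1 barcodes (14.1 against 46.8 CPM). By library totals the range from DN4 γδ- to DN4 γδ+ was 12.5-fold (3.64, 3.58 to 3.70), or 3.56-fold (1.83, 1.49 to 2.19) between G1 barcodes of these libraries. Runx3 was 1.87-fold lower at DN4 than at DN3b among γδ- cells (-0.90, -0.97 to -0.84) and 2.04-fold higher at DN4 among γδ+ cells (1.03, 0.99 to 1.07). Among γδ- cells the ratio was 0.50 (-0.02 to 1.02) in G1 barcodes, -1.07 in S and -0.80 in G2M barcodes. Splenic B cells also express Runx3, at 28.6 to 72.8 CPM in the B-like barcodes, so these barcodes give no background for it, and only DN4 γδ+ thymocytes exceeded the interval of the B-like barcodes of their own library (53.5 CPM, 36.1 to 76.4). As background, Runx3 is a marker of cytotoxic cells. The list of 5 NK markers summed to 7.41 CPM in DN4 γδ- and 332 CPM in DN4 γδ+, nearly all of it Nkg7 (322 CPM in DN4 γδ+). This sum was 322 CPM in DN3b γδ+, 30.4 in DN3b γδ-, 147 in DN3a, and 157 (γδ-) and 112 (γδint) in the Lat-KO libraries. Ncr1 was at 0 in every library. The sort gate took only cells without surface NK1.1, and the part of the cells with Nkg7 in the Runx3 level was not tested.

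Tox and Tox2 were both highest in the γδ+ libraries of WT mice, by different margins. On the γδ path Tox stood at 167 CPM (DN3b γδ+) and 232 CPM (DN4 γδ+), on the αβ path at 41.9 CPM (DN3b γδ-) and 37.8 CPM (DN4 γδ-), before selection at 59.6 CPM (DN3a), and without LAT at 59.0 CPM (γδ-) and 53.2 CPM (γδint). Unselected DN3a cells held 1.82 CPM of Tox2, the αβ precursors 2.01 CPM at DN3b and 2.15 CPM at DN4, the γδ+ cells 51.8 CPM at DN3b and 80.5 CPM at DN4, and the Lat-KO libraries 1.01 CPM (γδ-) and 1.85 CPM (γδint). Every γδ+ WT library thus lay above every other library for both genes.

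DN3b γδ+ exceeded DN3b γδ- 3.98-fold for Tox (1.99, 1.97 to 2.02) and 25.8-fold for Tox2 (4.69, 4.58 to 4.80), and DN4 γδ+ exceeded DN4 γδ- 6.13-fold for Tox (2.62, 2.58 to 2.65) and 37.4-fold for Tox2 (5.22, 5.09 to 5.36). Between G1 barcodes of the DN4 libraries these folds were 2.99 for Tox (1.58, 1.33 to 1.84) and 4.94 for Tox2 (2.30, 1.70 to 2.98, from 22 UMIs in DN4 γδ-). They were 5.40 in S and 5.13 in G2M barcodes for Tox, and 34.6 and 29.7 for Tox2. Only 374 DN4 γδ- barcodes were called G1, and they are described below. Tox2 had the widest range of the 8 genes, 79.4-fold from Lat-KO DN3 γδ- to DN4 γδ+. Among the 5 low libraries, the Tox2 intervals of DN4 γδ- and DN3b γδ-, of DN3b γδ- and Lat-KO DN3 γδint, and of Lat-KO DN3 γδint and DN3a overlapped, so no order is given for these neighbours. B-like barcodes of DN3b γδ+ held 20.5 CPM of Tox2 from 8 UMIs and those of DN4 γδ+ 7.14 CPM from 4 UMIs, and those of the other 5 libraries held none. The B-like barcodes of the γδ+ libraries, which should lack Tox2, thus held some of it, below the thymocyte level of the same library.

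**Figure D2:**
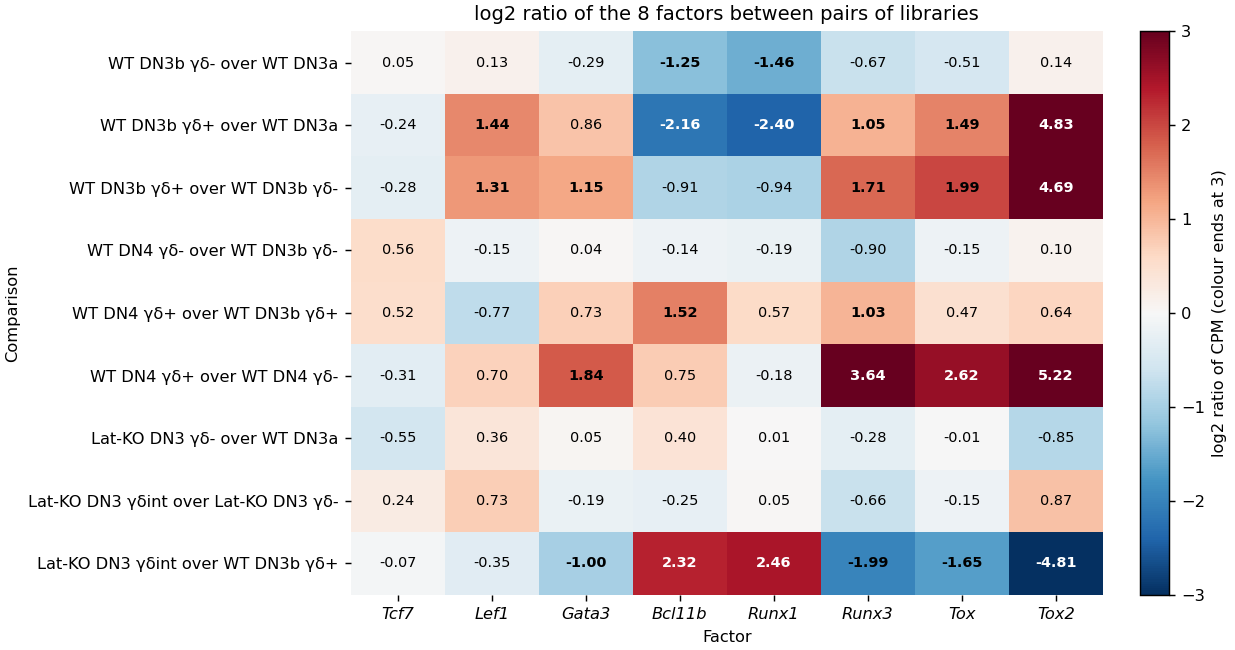
log2 ratio of CPM of each factor (columns) in each of the 9 comparisons (rows), numerator named before the denominator. Colour runs from -3 to 3 and values of at least 1 in size are bold. Tox2 had the widest ratios, up to 5.22 for DN4 γδ+ over DN4 γδ-, and Tcf7 stayed between -0.55 and 0.56 throughout.

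The counts of factors more than 2-fold apart are read here against all genes with at least 5 CPM in either library of the comparison. Between DN3b γδ- and DN3a, the step of β-selection, 2 of the 7 factors at this level (all but Tox2) were past 2-fold, Bcl11b and Runx1, both lower, where 27.9% of 9273 genes were past 2-fold. The median over the 8 factors was -0.40, against -0.13 over all genes tested. With TMM or median-of-ratios factors in place of library totals Bcl11b gave -0.89 and -0.94, and was no longer past 2-fold. Between DN3b γδ+ and DN3a, 6 were past 2-fold, Lef1, Runx3, Tox and Tox2 higher and Bcl11b and Runx1 lower, where 27.6% of genes were, and the median over the factors was 0.96 against -0.12 over all genes. Gata3, at 0.86, passed 2-fold with the other scalings (1.19 and 1.15). Both comparisons share the DN3a library.

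Between the DN3b libraries, 5 factors were more than 2-fold higher in γδ+ cells (Lef1, Gata3, Runx3, Tox and Tox2) and none was more than 2-fold lower, where 8.29% of genes were past 2-fold, and the factor median was 1.23 against -0.03. The share past 2-fold was thus larger among the factors than among all genes here, as in several of the other comparisons. The 8 genes were chosen with earlier results of these data known, so such shares are a description only. DN4 γδ- and DN3b γδ- were close, with 0 of 7 factors past 2-fold where 1.68% of genes were and a factor median of -0.15 against -0.12. The directions of Lef1 (0.80), Runx3 (0.50) and Tox (1.74) turned in G1 barcodes, of which DN4 γδ- held 374 and DN3b γδ- 461. From DN3b γδ+ to DN4 γδ+, Bcl11b and Runx3 were past 2-fold, both higher at DN4, where 19.7% of genes were, with medians of 0.60 and 0.13. Runx3 fell short of 2-fold with the other scalings (0.73 and 0.81), and Lef1 passed it with TMM factors (-1.07). Between the DN4 libraries, Gata3, Runx3, Tox and Tox2 were past 2-fold, all higher in γδ+ cells, where 29.2% of genes were, with medians of 1.30 and 0.22. Libraries called S or G2M in 94.5% to 97.4% of barcodes were on 1 side of several of these comparisons, as described below for the cell cycle.

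Between Lat-KO DN3 γδ- and WT DN3a, 0 of 7 were past 2-fold where 4.3% of genes were, and between the Lat-KO libraries 0 of 7 were past 2-fold where 8.07% of genes were. By library totals the largest member differences between the Lat-KO libraries were Lef1, 1.66-fold higher in γδint, and Runx3, 1.58-fold lower in γδint (-0.66, -0.80 to -0.53), apart from Tox2, which was under 2 CPM in both. TMM factors shifted every ratio of γδint over γδ- by -0.25 and median-of-ratios factors by -0.20. With TMM factors Lef1 was at 315 against 225 scaled CPM and Runx3 at 12.5 against 23.6. The Lat-KO libraries differ from WT in genotype, reporter and preparation as well as in LAT signals, which cannot be told apart here.

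Between Lat-KO DN3 γδint and WT DN3b γδ+, cells with a γδ TCR that cannot signal through LAT and cells with one that can, 6 of the 8 were past 2-fold where 36.3% of genes were. Bcl11b was 4.99-fold higher (2.32, 2.30 to 2.34) and Runx1 5.50-fold higher (2.46, 2.42 to 2.49) in the Lat-KO cells. Gata3 was lower by just over the threshold (95% interval -1.05 to -0.95, and -0.90 in G1 and -0.82 in S barcodes), Runx3 3.97-fold lower (-1.99, -2.10 to -1.88), Tox 3.14-fold lower (-1.65, -1.72 to -1.58) and Tox2 28.0-fold lower (-4.81, -5.17 to -4.47). By phase, Runx3 was 5.70-fold lower in G1 and 2.51-fold lower in S barcodes, and Tox2 64.1-fold lower in G1 (9 UMIs in the Lat-KO cells) and 16.9-fold lower in S (10 UMIs). Lef1 was 1.27-fold lower (-0.35, -0.37 to -0.33) and Tcf7 1.05-fold lower. TMM factors shifted every ratio of this comparison by -0.74 and median-of-ratios factors by -0.66. Lef1 was then at -1.09 and -1.01, Tcf7 at -0.81 and -0.73, Gata3 at -1.74 and -1.66, Bcl11b at 1.58 and 1.66, and Runx1 at 1.72 and 1.80. Of B-like barcodes, which should be alike in both libraries, 15.7% of 2177 genes were past 2-fold in this comparison and 10.2% of 3037 genes between the Lat-KO libraries, against 2.67% to 4.17% in the 7 comparisons without the γδint library. Genes with a transcript of at least 4000 nucleotides were 0.37 higher on the log2 scale in the B-like barcodes of γδint than in those of DN3b γδ+, and 0.33 higher than in those of Lat-KO DN3 γδ-. The medians over all genes of the B-like barcodes were shifted too, by 0.25 and 0.33. Of the 8 factors only Bcl11b and Runx1 have a transcript this long, but the shift was subtracted for all 8. Between the Lat-KO libraries Runx1 then went from 0.05 to -0.29 and Tcf7 from 0.24 to -0.09.

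**Figure D3:**
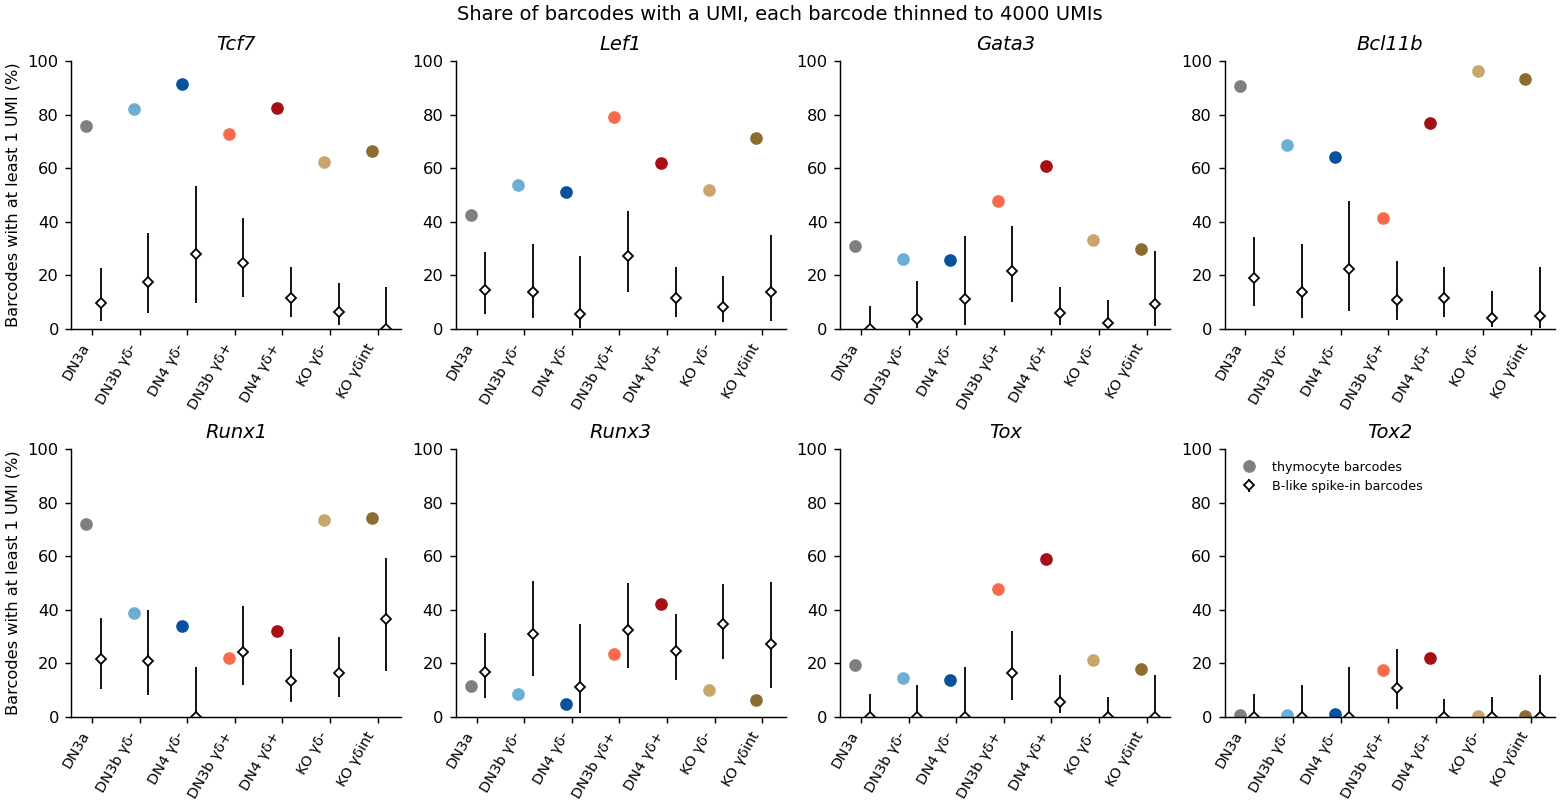
Share of barcodes with at least 1 UMI of each factor (y axis, percent) in each library (x axis) after every barcode was thinned to 4000 UMIs. Filled circles are thymocyte barcodes, white diamonds B-like barcodes (18 to 53 per library), and lines exact 95% binomial intervals. Tox2 was detected in 17.4% and 22.0% of γδ+ barcodes and in at most 0.982% of barcodes of the other 5 libraries.

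Shares of barcodes with a UMI followed the same pattern once depth was made equal. At 4000 UMIs per barcode, which left out 343 to 1769 shallower barcodes per library, Tcf7 was detected in 62.2% (Lat-KO DN3 γδ-) to 91.4% (DN4 γδ-) of barcodes and Bcl11b in 41.3% (DN3b γδ+) to 96.4% (Lat-KO DN3 γδ-). Without thinning these shares were 75.2% to 96.9% and 68.8% to 99.1%. Runx1 was detected in 72.2% to 74.1% of barcodes of DN3a and of the Lat-KO libraries and in 21.8% to 38.8% of the others. Lef1 was in 79.1% of DN3b γδ+ barcodes and 71.3% of Lat-KO DN3 γδint barcodes, and in 42.4% to 61.9% of the rest.

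Gata3 was detected in 60.6% of DN4 γδ+ barcodes (59.4 to 61.8), 47.8% of DN3b γδ+ barcodes and 25.8% to 33% of the rest. Tox was in 58.9% of DN4 γδ+ and 47.9% of DN3b γδ+ barcodes and in 13.8% to 21.2% elsewhere, and Runx3 in 42.2% and 23.4% against 4.70% to 11.6%. Tox2 was in 22.0% of DN4 γδ+ barcodes (21 to 23) and 17.4% of DN3b γδ+ barcodes (16.7 to 18.1), or 31.7% and 42.0% without thinning at median depths of 6418 and 15392 UMIs. The order of these γδ+ libraries for Tox2 thus turned with thinning, and the CPM followed the thinned order.

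Among B-like barcodes, which are shallower (medians of 2418 to 3621 UMIs per library) and few, the thinned share was 0% to 27.8% for Tcf7, 5.56% to 27.0% for Lef1, 0% to 21.6% for Gata3 and 4.08% to 22.2% for Bcl11b. For Tox it was 16.2% in DN3b γδ+, 5.66% in DN4 γδ+ and 0% in the other 5, and for Tox2 10.8% in DN3b γδ+ (4 of 37) and 0% elsewhere, where 0 of 18 to 0 of 53 barcodes allow shares of up to 18.5% and 6.72%. Thymocyte shares of Tcf7, Lef1, Gata3 and Bcl11b were above the B-like share of the same library in all 7 libraries. Shares of Tox2 in the 5 low libraries were within what these B-like barcodes allow. For Runx3 the B-like share, 11.1% to 34.7%, was above the thymocyte share in 6 of 7 libraries, the exception being DN4 γδ+.

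**Figure D4:**
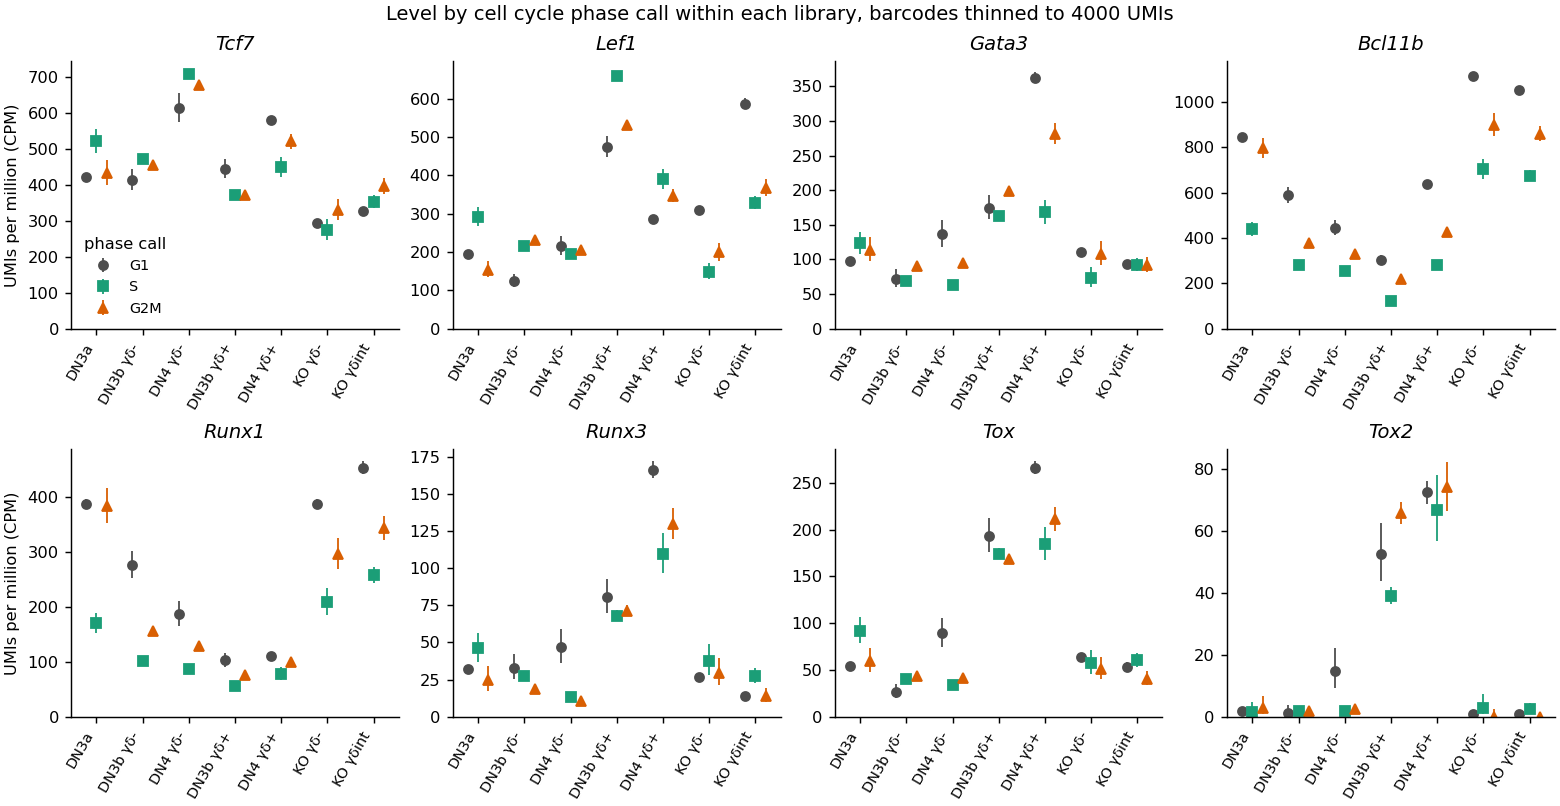
Level of each factor in CPM (y axis) in barcodes called G1 (circles), S (squares) and G2M (triangles) within each library (x axis), all barcodes thinned to 4000 UMIs, with 95% Poisson intervals. In every library Bcl11b and Runx1 were lowest in S, for example 123 CPM of Bcl11b in S against 303 in G1 in DN3b γδ+.

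The libraries differed sharply in cell cycle. Barcodes called S or G2M from 43 S and 54 G2M genes made up 13.1% of DN3a, 97.4% of DN3b γδ-, 96.8% of DN4 γδ-, 94.5% of DN3b γδ+, 25.4% of DN4 γδ+, 11.5% of Lat-KO DN3 γδ- and 39.6% of Lat-KO DN3 γδint. Between 2.90% and 22.4% of barcodes lay within 0.05 of the threshold of the calls. Of B-like barcodes, 1 of 42 in DN3a, 7 of 29 in DN3b γδ-, 10 of 18 in DN4 γδ- and 26 of 37 in DN3b γδ+ were also called S or G2M, so free RNA of cycling cells may enter these calls, and its part was not tested.

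Bcl11b and Runx1 varied with phase inside each library. In S against G1 barcodes, Bcl11b was lower by log2 values from -0.64 (Lat-KO DN3 γδint) to -1.30 (DN3b γδ+), and Runx1 from -0.49 (DN4 γδ+) to -1.45 (DN3b γδ-), in 7 of 7 libraries each. In DN3a, where few cells cycled, Bcl11b stood at 844 CPM in G1, 439 in S and 795 in G2M, and Runx1 at 388, 170 and 384. The difference between DN3b γδ- and DN3a was smaller within a phase than over all barcodes. For Bcl11b it was -0.52 (-0.61 to -0.43) in G1, -0.63 (-0.74 to -0.53) in S and -1.08 (-1.17 to -1) in G2M, against -1.25 over all barcodes. For Runx1 it was -0.49 (-0.62 to -0.36) in G1, -0.75 (-0.91 to -0.58) in S and -1.31 (-1.43 to -1.18) in G2M, against -1.46. Both stayed below DN3a in every phase, but past 2-fold in G2M only. Tox, at -0.51 over all barcodes, was past 2-fold in G1 (-1.02, -1.47 to -0.61) and S (-1.19, -1.42 to -0.96).

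For γδ selection the same genes stayed more than 2-fold below DN3a in every phase. In DN3b γδ+ against DN3a, Bcl11b gave -1.48 in G1, -1.83 in S and -1.88 in G2M, and Runx1 -1.92, -1.61 and -2.33. Of the 4 factors that were higher, Lef1 and Tox2 stayed past 2-fold in every phase, while in S barcodes Runx3 (0.56, 0.25 to 0.89) and Tox (0.92, 0.70 to 1.15) were not past it. Within S, the phase in which the most barcodes of DN3b γδ+ lay, DN3b γδ+ was 1.61 above DN3b γδ- for Lef1, 1.25 for Gata3, 1.32 for Runx3, 2.12 for Tox and 4.36 for Tox2, on the log2 scale, with Runx1 at -0.86 and Bcl11b more than 2-fold lower. Runx1 was more than 2-fold lower in G1 (-1.43, -1.66 to -1.21) and G2M (-1.03, -1.11 to -0.95), where Bcl11b was at -0.96 and -0.79. The 5 factors that were past 2-fold between the DN3b libraries were so in G1, S and G2M alike, with Lef1 at 1.93 and Tox at 2.87 in G1.

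Lef1 depended on phase in opposite ways. In S against G1 it was higher in DN3a (0.58), DN3b γδ- (0.80), DN3b γδ+ (0.48) and DN4 γδ+ (0.44) and lower in Lat-KO DN3 γδ- (-1.05) and Lat-KO DN3 γδint (-0.84), with DN4 γδ- at -0.15 (-0.31 to 0.02). Lat-KO DN3 γδint cells in G1 held 586 CPM of Lef1, above the 474 CPM of DN3b γδ+ cells in G1 (0.31, 0.22 to 0.40), whereas in S they held 328 against 659 CPM (-1.01, -1.09 to -0.93). The direction of the Lef1 difference between Lat-KO γδint and WT DN3b γδ+ cells thus turned with the phase.

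The 374 DN4 γδ- barcodes called G1 stood apart from the rest of that library. They held 46.8 CPM of Runx3 against 13.0 in S and 10.9 in G2M, 88.9 CPM of Tox against 34.2 and 41.1, 136 CPM of Gata3 against 62.5 and 94.1, and 14.7 CPM of Tox2 against 1.94 and 2.50. Markers of other cell types and stages were also higher there. Hbb-bs was at 1273 CPM in these barcodes against 65.6 CPM in the cycling ones, Nkg7 at 68.9 against 8.19, Trdc at 378 against 235 and Rag1 at 213 against 79.2, while Zbtb16 rested on 1 UMI. Cd8b1 was at a similar level in both. Nkg7, Trdc and Rag1 were also higher in G1 than in cycling barcodes of DN3b γδ-. There Nkg7 was at 85.1 against 33.1 CPM, Trdc at 271.7 against 208.3 and Rag1 at 188.7 against 38.5. Higher levels of these 3 genes in G1 were thus not particular to DN4 γδ-. The part of cells with any of these markers in the factor levels was not tested. The erythroid list as a whole, with all 4 genes at 5 CPM or more, summed to 170 CPM in DN4 γδ- and to 0.149 to 35.7 CPM in the other libraries.

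**Figure D5:**
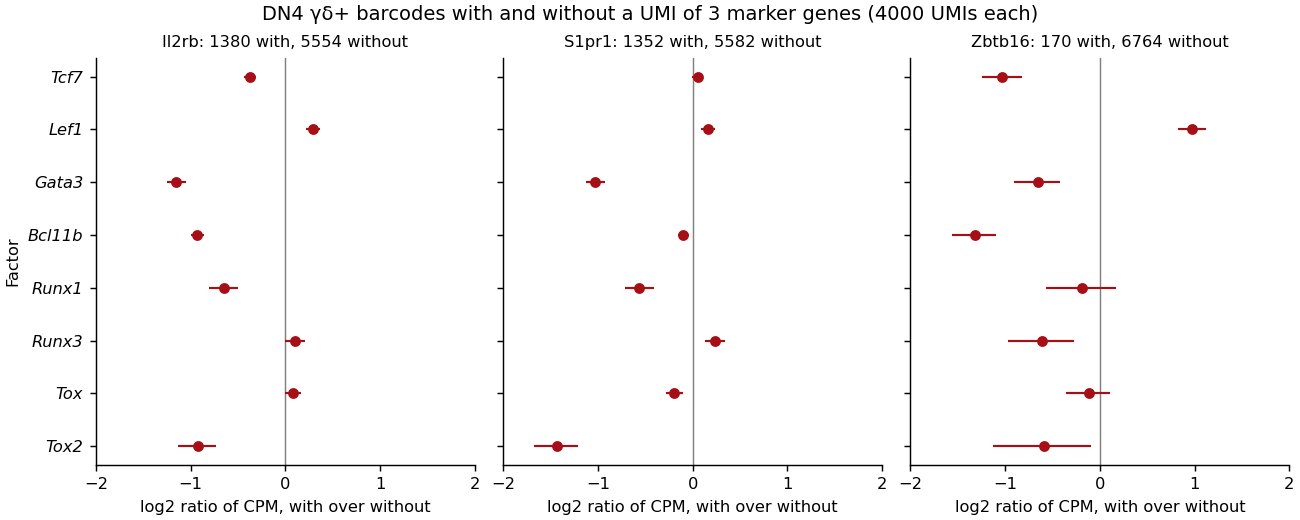
log2 ratio of CPM of each factor (rows) between DN4 γδ+ barcodes with and without a UMI of Il2rb, S1pr1 or Zbtb16 (panels), at 4000 UMIs per barcode, with 95% intervals. Gata3 lay at -1.15 for Il2rb and Tox2 at -1.44 for S1pr1.

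DN4 γδ+ cells are in the course of splitting into functional subsets, and the factors differed between barcodes with and without a UMI of a subset marker that was not among the 8 genes. The 1380 barcodes with Il2rb, the β chain of the interleukin-2 and interleukin-15 receptors and a feature of interferon-γ-producing γδ cells, were among 6934 in all. They held 168 CPM of Gata3 against 373 (-1.15, -1.25 to -1.05), 331 CPM of Bcl11b against 631 (-0.93, -1 to -0.86) and 42.0 CPM of Tox2 against 79.9 (-0.93, -1.13 to -0.73). Runx3 and Tox differed by 0.10 and 0.08, both with intervals that included 0. Runx3, highest in this library, thus stood at 165 CPM in barcodes with Il2rb and 153 CPM in those without. Il2rb was found in 19.9% of the thymocyte barcodes at this depth and in 3 of 53 B-like barcodes.

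S1pr1, the receptor that lets mature thymocytes leave the thymus, had a UMI in 1352 barcodes. B cells express it too, with a UMI in 19 of 53 B-like barcodes, which thus give no background for it. The 1352 barcodes had less Tox2, 30.5 against 82.5 CPM (-1.44, -1.67 to -1.21), less Gata3, 181 against 369 CPM (-1.03, -1.12 to -0.93), and slightly more Runx3 (0.23, 0.13 to 0.34). Tcf7 differed by 0.05, with an interval that included 0. The 170 barcodes with Zbtb16, which encodes PLZF, had less Tcf7, 276 against 565 CPM (-1.03, -1.25 to -0.82), less Bcl11b, 232 against 580 CPM (-1.32, -1.56 to -1.09), and more Lef1, 585 against 298 CPM (0.97, 0.82 to 1.12). Zbtb16 was in 2.45% of the thymocyte barcodes and in 1 of 53 B-like barcodes, too few to tell free RNA from expression. Of the 170, 42.9% were called S or G2M against 24.9% of the others, and the part of the cell cycle was not tested.

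In DN3b γδ+, 148 barcodes had a UMI of Rag1, a recombinase gene of unselected cells. The thymocyte barcodes of that library held 3.33 CPM of Rag1 and its B-like barcodes 7.71 CPM (1.59 to 22.5) from 3 UMIs, so free RNA and expression cannot be told apart in this split. The 148 barcodes had 243 CPM of Runx1 against 65.2 (1.90, 1.65 to 2.14) and 503 CPM of Bcl11b against 171 (1.56, 1.39 to 1.72), and lower Lef1 (-1.03), Gata3 (-1.07), Tox (-1.10) and Tox2 (-1.15, -2.02 to -0.40). Each of these 6 differences pointed from DN3b γδ+ towards the DN3a level. Of these barcodes, 70.3% were called S or G2M against 94.8% of the others, and the part of the cell cycle was not tested. Barcodes with Nr4a1, an early TCR-response gene, numbered 2879 (26.5%, against 2 of 37 B-like barcodes) and differed little, with Lef1 at 0.21 (0.17 to 0.24), Bcl11b at -0.39 (-0.47 to -0.31), Tox at 0.11 and Tox2 at 0.01 (-0.12 to 0.15). In DN4 γδ-, the 3300 barcodes with a UMI of Cd8b1, a gene switched on towards the double-positive stage (27.9%, against 1 of 18 B-like barcodes), had Tcf7 0.10 higher, Tox -0.44 (-0.60 to -0.28) and Runx3 -0.34 (-0.62 to -0.07).

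In the γδ+ libraries, detection of a pair of factors in the same barcode was close to what their separate shares give when multiplied. Over the 28 pairs at 4000 UMIs in DN4 γδ+, the observed number over this product ranged from 0.97 to 1.18, the highest being Gata3 with Tox2, and in DN3b γδ+ from 0.95 to 1.19, with Runx3 and Tox2 highest. Bcl11b and Runx1 had a ratio of 1.17 in DN3b γδ+. In DN4 γδ- the ratio was higher for Runx3 and Tox (1.55, 119 barcodes against 76.7), Tox and Tox2 (2.56, 41 against 16.0) and Runx3 and Tox2 (3.85, 21 against 5.45). These ratios share library and depth and are given as a description.

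For each factor, the genes with the most similar profile over the 7 libraries were found among 7397 or 7398 genes with at least 5 CPM in every library, by the root-mean-square distance of centred log2 CPM. For Tcf7 they were Snrpb2, Zcchc10 and Txndc17 (distances 0.20 to 0.23, against a median of 0.62 over all candidates), and for Lef1 Hspa5, Pdia6 and Nptn (0.15 to 0.18 against 0.61). For Gata3 they were Limd2, Ppp1r13b and Galnt10 (0.15 to 0.17 against 0.81), for Bcl11b Lig4, Ripor1 and Atg2a (0.17 against 0.81) and for Runx1 Mafk, Tapt1 and Abcg3 (0.12 to 0.16 against 0.89). For Runx3 they were Trim26, Arap2 and Tmem173 (0.23 to 0.30 against 1.26), and for Tox Ppp1r16b, Cytip and Ptk2b (0.11 to 0.19 against 1.06). For Tox2 they were Klf2, Tmsb10 and Sox13 (0.75 to 1.13 against 2.49). None of the 8 factors was among the nearest 3 genes of another. Tox2, at 1.01 CPM in its lowest library, was not a candidate for the others and so could not be.

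The partners of the factors were followed as a list of 14 genes of corepressors, coactivators and close relatives. In DN3b γδ- against DN3a, 1 of 13 tested was more than 2-fold higher and 6 were lower, where 27.9% of all genes were past 2-fold, among them the relatives Tcf7l2 (-2.57), Tox3 (-1.89), Runx2 (-1.84) and Bcl11a (-1.80). In DN3b γδ+ against DN3b γδ-, Cbfb, the obligate partner of the Runx proteins, was the only partner past 2-fold, at 107 CPM against 49.2 (1.12), where 8.29% of all genes were. In DN4 γδ+ against DN4 γδ-, 4 of 11 were higher, Runx2 (3.79), Tle4 (2.28), Bcl9l (2.03) and Bcl9 (1.44), and Tle1 was lower (-1.30), where 29.2% of all genes were past 2-fold. Tcf7l2 and Tox3 were low in all selected WT libraries and higher in DN3a and Lat-KO cells, with Tcf7l2 at 3.81 to 9.19 CPM in the selected WT libraries, 22.7 CPM in DN3a and in Lat-KO DN3 γδ-, and 11.8 CPM in Lat-KO DN3 γδint.

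Among 40 other regulators of T-cell and progenitor programmes, 29 were tested in DN3b γδ- against DN3a, of which 2 were more than 2-fold higher and 14 lower (27.9% of all genes were past 2-fold), led by Erg (-3.55), Maf (-3.46) and Notch3 (-3.33). In DN3b γδ+ against DN3b γδ-, 11 of 30 were higher, led by Egr3 (7.03), Rora (4.07), Maf (4.07) and Sox13 (3.42), and 3 lower, Notch3 (-2.72), Notch1 (-1.45) and Satb1 (-1.42), where 8.29% of all genes were past 2-fold. In DN4 γδ+ against DN4 γδ-, 18 of 32 were higher, led by Eomes (9.17, from 4 UMIs in DN4 γδ-), Maf (6.47) and Egr3 (6.18), and 3 lower, Myc (-1.86), Notch3 (-1.62) and Notch1 (-1.53), where 29.2% of all genes were past 2-fold. Between Lat-KO DN3 γδ- and DN3a, 2 of 28 were past 2-fold, Maf (-1.44) and Id3 (-1.12), both lower, where 4.3% of all genes were, and between the Lat-KO libraries Id3 was higher (1.41) and Erg lower (-1.17), where 8.07% of all genes were. The median of the regulators, 0.35 in DN3b γδ+ against DN3b γδ- and 1.40 in DN4 γδ+ against DN4 γδ-, lay beside medians of 1.23 and 1.30 over the 8 factors.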

How the data were processed

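The deposited values are raw UMI counts per gene and barcode, which the authors made with Cell Ranger from 10x 3' v3 reads on an mm10 genome that also held the edited Trdc allele (per the file headers version 4.0.0, per the labels version 5.0.1; Seurat 3.1.5 and R 3.6.3 were also named). A barcode needed 200 detected genes, with no more than 15% of its UMIs mitochondrial, and thymocyte barcodes had at most 1 UMI of Cd79a, Cd79b and Ms4a1. UMIs were summed per library and divided by the library total. CPM intervals were exact Poisson, shares exact Clopper-Pearson and log2 ratios exact conditional binomial (95%). For a log2 ratio, but not for its interval, counts under 3 UMIs were set to 3. Counts were not divided by gene length, so levels are compared within a gene. Thinning drew 4000 UMIs per barcode without replacement. Phases were called with scanpy 1.11.5, and TMM factors came from edgeR 4.0.16. Doublets were not called, and as an alternative the 8% deepest barcodes of each library were left out. Scripts were tested on simulated data. Of 32286 features, 32235 matched GENCODE vM21. The 8 genes and the lists were chosen with earlier results of these data known. Genes named beyond the 8 are the 3 nearest in profile, regulators and partners past 2-fold (at most 6 per comparison) and checks of labels. Results for a further subset marker are not reported here.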

Additional observations from a re-analysis of the deposited data

Results flagged for a closer look

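Runx3 moved in opposite directions from DN3b to DN4 on the 2 paths. Its log2 ratio of DN4 over DN3b was -0.90 in γδ- cells and 1.03 in γδ+ cells. Among γδ- cells the ratio was 0.50 in G1 barcodes, with an interval of -0.02 to 1.02, from 70 against 61 UMIs. It was -1.07 in S and -0.80 in G2M barcodes. With 1 library per group the difference between the ratios of the 2 paths was not tested.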

How the results depend on the processing

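The number of factors past 2-fold changed by more than 1.5 times in 4 of the 9 comparisons. For DN3b γδ- over DN3a it was 2, and it was 1 with TMM factors, with median-of-ratios factors, in G1 barcodes and in S barcodes, the factor in G1 and in S being Tox in place of Bcl11b and Runx1. For DN4 γδ- over DN3b γδ- it was 0, and 1 in G1 barcodes (Tox, 1.74), in S barcodes (Runx3, -1.07) and at 1.5-fold. Tox2, under 5 CPM over all barcodes of both libraries, was not in these counts. In G1 barcodes it gave 3.18 with the 2 UMIs of DN3b γδ- set to 3, and an interval of 1.74 to 6.89 from 22 against 2 UMIs. For DN4 γδ+ over DN3b γδ+ it was 2, and 1 with median-of-ratios factors and in S barcodes, 0 in G2M barcodes, and 5 with the B-like level subtracted and at 1.5-fold, the former including Runx1 and Runx3, which B cells express. Subtraction gave no Runx3 ratio in 4 comparisons, since both levels were then below the floor of 3 UMIs. Between the Lat-KO libraries it was 0, and 1 in S and in G2M barcodes and 2 at 1.5-fold. The causes were not tested. The S and G2M settings were chosen after seeing the data. In the other 5 comparisons the count stayed within 1.5 times of the reported one under the settings run, and no ratio past 2-fold changed sign under any of them. TMM factors shifted the median gene by 0.36 for DN3b γδ- over DN3a and by -0.74 for Lat-KO DN3 γδint over DN3b γδ+. No paired analysis was possible because each group has 1 library. Depth limits Tox2, which rested on 51 to 98 UMIs in DN3a and the Lat-KO libraries.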
